A study of Mus musculus with 16 samples.

Results

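H19 and 9 other imprinted genes of the growth network were followed in tumour cells enriched from mice carrying LLC1 tumours, a Lewis lung carcinoma line of the mouse. H19, a maternally expressed long non-coding RNA, was picked because its mean was higher in both groups given MYCi975 and because its values spread widely. Its levels are therefore given as a description, and no test of H19 is read as evidence. Igf2, Igf2r, Cdkn1c, Dlk1, Meg3, Peg3, Grb10, Plagl1 and Mest were listed beside it for their known roles, with earlier results of these data known. Of the 10 genes, 8 were found among the 24334 genes of the table, and Cdkn1c and Dlk1 are not analysed here. After the filter on low values, 6 of the 8 were among the 15715 genes tested (H19, Igf2, Igf2r, Grb10, Peg3 and Mest), while Meg3 and Plagl1 were too low.

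All mice bore LLC1 tumours and were treated for 16 days. The Vehicle group received DMSO, the MYCi975 group 50 mg/kg of MYCi975, a compound that inhibits the MYC transcription factor, and the TMP195 group 50 mg/kg of TMP195, an inhibitor of class IIa histone deacetylases. The Combo group received both compounds, at doses that the labels do not state for the combination. Each group holds 4 libraries, numbered 1 to 4, for 16 in all. The labels give no strain or age of the mice and do not say whether each library came from its own animal. The p-values therefore rest on library-to-library spread alone, some of which may be technical. All groups share 1 tumour line and the same enrichment step. In such bulk libraries, fewer cells of a type and less RNA per cell cannot be told apart.

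Imprinted genes are expressed mainly from a single parental copy, which is marked by DNA methylation laid down in the germ line. Many act on fetal growth. Paternally expressed members such as Igf2, Dlk1, Peg3, Plagl1 and Mest tend to promote growth or mark fetal mesoderm, and maternally expressed members such as H19, Igf2r, Cdkn1c, Grb10 and Meg3 tend to restrain it. H19 and Igf2 are neighbours that share downstream enhancers, and a CTCF-bound control region between them directs these enhancers to H19 on the maternal and to Igf2 on the paternal chromosome. Most of these genes are turned down after birth and can be expressed again in tumours.

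The neighbouring pair also hosts microRNAs, shown here because they are read from the same transcripts whose levels are described next. The H19 RNA holds the miR-675 hairpin and an intron of Igf2 holds miR-483. Mature sequences from RefSeq (GRCm38.p6, chromosome 7, minus strand, at chr7:142577112-142577133, chr7:142577078-142577099, chr7:142654968-142654989 and chr7:142654932-142654952 in the order printed) have their seed, bases 2 to 8, in capitals:
mmu-miR-675-5p: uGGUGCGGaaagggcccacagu
mmu-miR-675-3p: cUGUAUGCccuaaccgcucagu
mmu-miR-483-5p: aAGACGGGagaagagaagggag
mmu-miR-483-3p: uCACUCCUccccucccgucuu
The 4 seeds differ from each other. The libraries measure the long transcripts, and mature microRNAs are not analysed here.

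Because MYC binds the E-box CACGTG, the 250 bases before each annotated transcription start were searched for these letters, which read the same on both strands. RefSeq windows were at hand for 8 of the 10 genes (15 windows). None was at hand for H19 and Cdkn1c, which were therefore not searched. Of the windows searched, only those of Igf2r, with 2 E-boxes, and Plagl1, with 1, held the motif. Of all 32851 such windows, 6.02% held at least 1 E-box and 0.43% held 2 or more. The Igf2r window (chr17:12769707-12769956, minus strand, E-boxes in capitals, starting 48 and 7 bases before the start) and, for contrast, the Igf2 window nearest to the gene body (chr7:142657497-142657746, minus strand, no E-box) read as follows:
Igf2r: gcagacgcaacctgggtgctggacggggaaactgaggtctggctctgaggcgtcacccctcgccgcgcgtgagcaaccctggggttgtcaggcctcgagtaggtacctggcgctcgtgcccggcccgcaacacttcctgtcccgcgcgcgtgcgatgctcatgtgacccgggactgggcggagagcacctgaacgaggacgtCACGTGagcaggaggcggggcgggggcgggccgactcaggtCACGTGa
Igf2: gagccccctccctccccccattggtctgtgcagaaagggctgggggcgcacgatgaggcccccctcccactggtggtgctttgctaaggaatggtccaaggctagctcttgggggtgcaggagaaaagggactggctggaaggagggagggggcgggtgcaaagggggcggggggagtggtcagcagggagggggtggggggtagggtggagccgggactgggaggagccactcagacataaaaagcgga
A match or its absence in these windows is a description of the letters and says nothing of MYC binding in these cells.

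The deposited values are variance-stabilised and behave roughly as log2 units, and a gene without reads stands at 4.84 in every library. Differences of weakly expressed genes are compressed on this scale, and levels of different genes are not compared because the values are not per length. Depth per library is unknown. Genes at the lowest value ranged from 1960 to 3130 per library. On the first principal component (21.18% of the variance) replicate 4 of Vehicle, TMP195 and MYCi975 stood apart from the other 13 libraries, with scores of 26.6 to 33.2 against at most 5.90. TMP195 replicate 1 and MYCi975 replicate 3 had the highest leukocyte marker means. In these libraries of enriched tumour cells the keratin Krt8 spanned 10.17 to 10.97 and Krt18 10.18 to 11.45. The keratins Krt7 (6.43 to 7.83) and Krt19 (5.18 to 7.37) lay nearer the lowest value. The epithelial adhesion genes Epcam, Cdh1, Cldn4 and Cldn7 were below the filter. Bulk values do not show which cells expressed these genes.

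H19 (ENSMUSG00000000031.19) was well above the lowest value in all 16 libraries. In Vehicle it stood at 12.97, 10.45, 10.94 and 10.36 in replicates 1 to 4, and in TMP195 at 12.66, 10.66, 10.86 and 10.78. In MYCi975 it stood at 12.72, 12.14, 11.79 and 12.03, and in Combo at 11.49, 13.24, 12.49 and 11.99. All 8 libraries given MYCi975 thus lay at 11.49 or above, 6 of the 8 libraries without it lay at 10.94 or below, and replicate 1 of Vehicle and of TMP195 lay as high as the treated libraries, so the groups overlapped. Replicate 1 was the highest of its group in Vehicle, TMP195 and MYCi975 and the lowest in Combo.

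Group means of H19 were 11.18 ± 1.22 (SD, n = 4) in Vehicle, 11.24 ± 0.95 in TMP195, 12.17 ± 0.39 in MYCi975 and 12.30 ± 0.75 in Combo. In this order the means of Vehicle and TMP195, and those of MYCi975 and Combo, differed by far less than the spread within the groups, and the step from TMP195 to MYCi975 was about as large as the SD of TMP195. The mean of the 8 libraries given MYCi975 was higher by 1.03 (standard error, SE, 0.37) than that of the 8 without it, and the difference of the medians was 1.27. These are the values for which H19 was chosen. Without all libraries numbered 4 the difference was 0.89, and without TMP195 replicate 1 and MYCi975 replicate 3, the pair with the highest leukocyte markers, it was 1.33. Without replicate 1 of Vehicle and of TMP195, which were left out after their H19 values had been seen, it was 1.56, over 1.5 times the value with them.

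**Figure D1:**
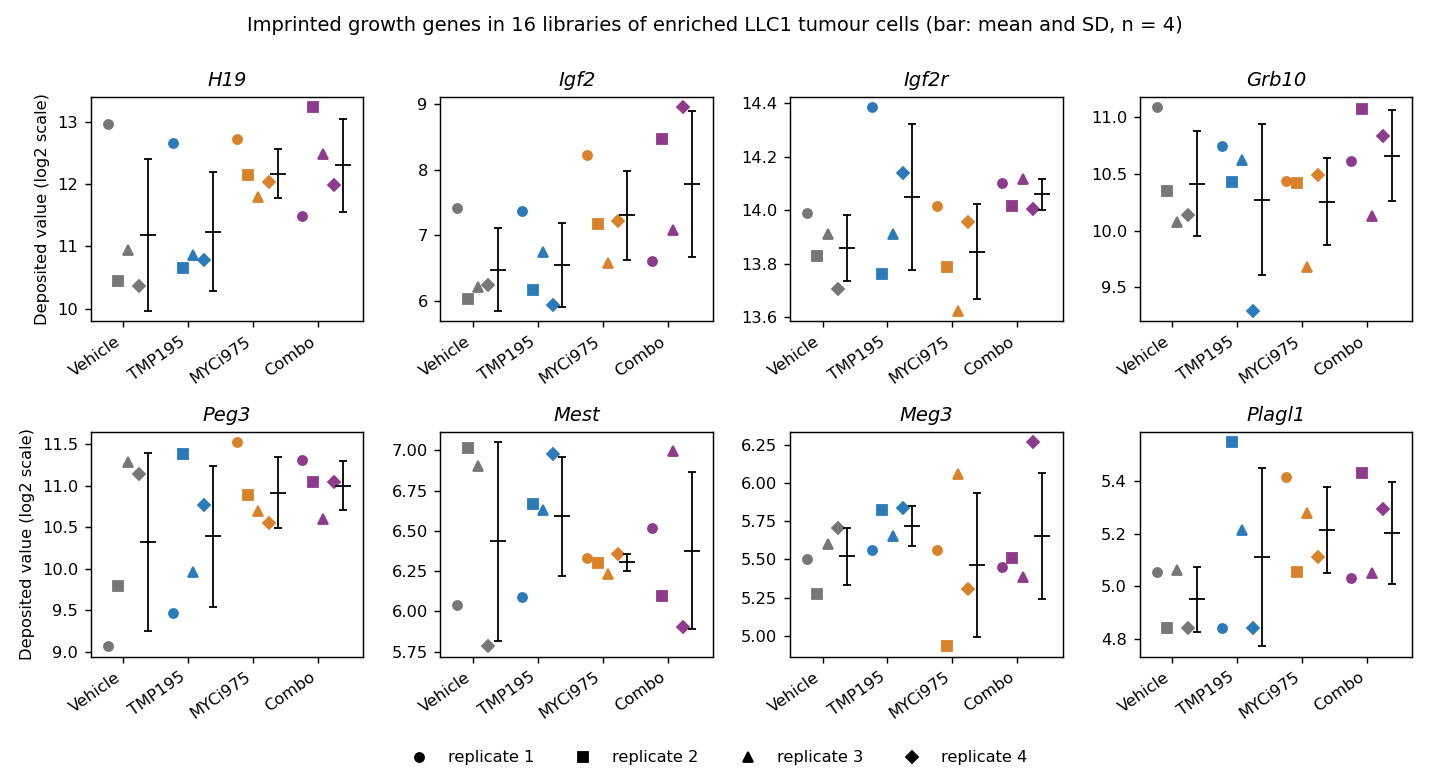
Deposited values (log2 scale, y axes differ between genes) of the 8 imprinted genes with a row, by treatment group; each symbol is 1 library, its shape the replicate number, and the bars are the mean and SD of 4 libraries. H19 and Igf2 are high in all or most libraries given MYCi975 and in replicate 1 of Vehicle and TMP195, whereas Igf2r spans only 13.62 to 14.39.

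Igf2 (ENSMUSG00000048583.18), the fetal insulin-like growth factor and the neighbour of H19, showed a like distribution over the libraries at values nearer the lowest. Vehicle libraries 1 to 4 had 7.41, 6.03, 6.21 and 6.24, and TMP195 libraries 7.37, 6.16, 6.74 and 5.94. MYCi975 libraries had 8.23, 7.17, 6.58 and 7.22, and Combo libraries 6.61, 8.47, 7.08 and 8.96. The 3 highest values were all in libraries given MYCi975, the 5 lowest were all in libraries without it, and replicate 1 of Vehicle and of TMP195 again stood above the other 3 of its group.

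Means of Igf2 were 6.47 ± 0.63 (SD, n = 4) in Vehicle, 6.55 ± 0.64 in TMP195, 7.30 ± 0.68 in MYCi975 and 7.78 ± 1.11 in Combo. The 8 libraries given MYCi975 were higher by 1.03 (SE 0.34, 95% interval 0.31 to 1.75) than the 8 without it, and 8 of 8 lay above the mean of the latter, but the gene did not pass the test over all genes (limma adjusted p = 0.809). Against Vehicle the differences were 1.31 in Combo (SE 0.48, adjusted p = 0.987), 0.83 in MYCi975 (SE 0.48, adjusted p = 0.999) and 0.08 in TMP195 (SE 0.48, adjusted p = 0.994) by limma. The difference between Combo and TMP195 was 1.23 (SE 0.48, limma adjusted p = 0.832). Combo and MYCi975 differed by 0.48 (SE 0.48), and the interaction of the 2 compounds was 0.40 (95% interval -1.03 to 1.83). Leaving out 1 library moved several of these values by over 1.5 times. Without Combo replicate 4 the difference between Combo and MYCi975 was 0.087 and the interaction 0.0070, and without Combo replicate 1 they were 0.87 and 0.79. Without MYCi975 replicate 1 the difference between MYCi975 and Vehicle was 0.52. For MYCi975 given against not given, the difference was 0.71 without all libraries numbered 4. Without the 2 libraries highest in leukocyte markers it was 1.29, and neither passed.

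No gene passed at a limma adjusted p under 0.05 in any of the 7 comparisons, a background of 0% of 15715 genes. At an unadjusted p under 0.05, 836 genes (5.32%) differed between libraries given MYCi975 and those without it, 476 (3.03%) between MYCi975 and Vehicle, 642 (4.09%) between Combo and Vehicle and 767 (4.88%) between TMP195 and Vehicle. None of the 5 tested members beside H19 was called at an adjusted p under 0.05 in any comparison. At the unadjusted threshold Igf2 was the only one of the 5 to qualify, with 95% intervals above 0. These were 0.31 to 1.75 for MYCi975 given against not given, 0.29 to 2.32 for Combo against Vehicle and 0.21 to 2.24 for Combo against TMP195. In the last comparison 837 of 15715 genes had an unadjusted p under 0.05. Since the members were listed with earlier results of these data known, the Igf2 intervals may carry that choice.

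**Figure D2:**
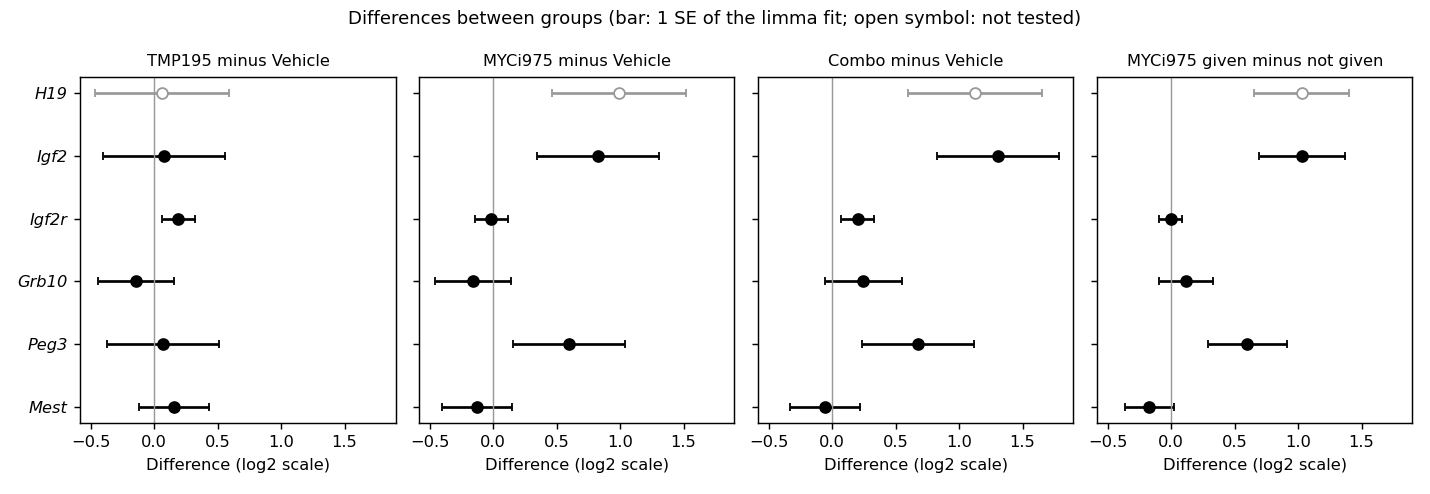
Differences between groups (log2 scale) of the 6 imprinted genes past the filter, in 4 comparisons; points are the estimates and bars 1 SE of the limma fit, and the open symbol marks H19, which was chosen on these values and not tested. Igf2 lies at 1.03 and Peg3 at 0.60 for MYCi975 given against not given, while Igf2r lies at -0.0016.

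Igf2r (ENSMUSG00000023830.15) encodes the cation-independent mannose 6-phosphate receptor, which carries IGF2 to lysosomes for breakdown. Its values were the steadiest of the 6 members tested, with a low of 13.62 in MYCi975 replicate 3 and a high of 14.39 in TMP195 replicate 1. Vehicle libraries had 13.99, 13.83, 13.91 and 13.70 and Combo libraries 14.10, 14.02, 14.12 and 14.00. Unrounded, the lowest Combo value (14.004) lay just above the highest Vehicle value (13.991), so these groups did not overlap, as was the case with Combo higher for 1.79% of all genes tested. The difference of 0.20 (SE 0.13, 95% interval -0.07 to 0.47) did not pass by limma (adjusted p = 0.987). TMP195 differed from Vehicle by 0.19 (SE 0.13), or by 0.079 without TMP195 replicate 1 and 0.29 without TMP195 replicate 2, and MYCi975 by -0.01 (SE 0.13), and libraries given MYCi975 differed from those without it by between -0.19 and 0.19 (95% interval).

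Airn, the paternally expressed antisense RNA that overlaps Igf2r and silences it in cis on the paternal chromosome, had values from 8.60 to 9.94. Its group means were 8.76 in Vehicle, 9.06 in TMP195, 9.30 in MYCi975 and 9.20 in Combo. It differed from Vehicle by 0.54 in MYCi975 (SE 0.24, limma adjusted p = 0.999) and by 0.44 in Combo (SE 0.24, adjusted p = 0.987). The kit keeps the strand, but no label says whether the quantification used it, so reads of Airn and Igf2r may not be fully separated. The same holds for Mest and its antisense neighbour Copg2. The antisense gene of Igf2, Igf2os, was at most 5.52.

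Grb10 (ENSMUSG00000020176.18), an adaptor that restrains signalling of the insulin and IGF1 receptors, had 11.09, 10.35, 10.08 and 10.14 in Vehicle and 10.75, 10.43, 10.62 and 9.29 in TMP195. It had 10.44, 10.42, 9.68 and 10.49 in MYCi975 and 10.61, 11.07, 10.13 and 10.83 in Combo. The 4 groups overlapped, and the low libraries were TMP195 replicate 4 and MYCi975 replicate 3. Differences from Vehicle were -0.14 in TMP195, -0.16 in MYCi975 and 0.25 in Combo (SE 0.30 each), with limma adjusted p from 0.981 to 0.999. In Combo the difference was 0.11 without Combo replicate 2 and 0.47 without Vehicle replicate 1.

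Peg3 (ENSMUSG00000002265.18), a paternally expressed zinc finger gene, split the libraries without MYCi975 in another way than H19. In Vehicle it stood at 9.07, 9.80, 11.29 and 11.14 and in TMP195 at 9.46, 11.38, 9.96 and 10.77. In MYCi975 it stood at 11.53, 10.89, 10.70 and 10.56 and in Combo at 11.32, 11.04, 10.60 and 11.04. The 4 lowest libraries were all without MYCi975, and the 2 lowest were replicate 1 of Vehicle and of TMP195, which of the libraries without MYCi975 had the highest H19. Given against not given MYCi975, Peg3 differed by 0.60 (SE 0.31, 95% interval -0.06 to 1.26, limma adjusted p = 0.952). It differed by 0.39 without Vehicle replicate 1, by 0.24 without replicate 1 of Vehicle and of TMP195 and by 0.082 without all libraries numbered 1, the latter fits being added after the H19 values had been seen. The SD of Peg3 was 0.34 over the 8 libraries given MYCi975 and 0.90 over the 8 without it; the difference between these SDs was not tested.

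Mest (ENSMUSG00000051855.16), a paternally expressed gene of mesodermal tissue that encodes a hydrolase-like protein, ranged from 5.78 in Vehicle replicate 4 to 7.01 in Vehicle replicate 2. Its MYCi975 libraries lay close together at 6.33, 6.30, 6.23 and 6.36, inside the range of each other group. Differences from Vehicle were 0.15 in TMP195, -0.13 in MYCi975 and -0.06 in Combo (SE 0.27 each), none called.

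Meg3 (ENSMUSG00000021268.19), the maternally expressed long non-coding RNA of the Dlk1 domain, was too low to be tested. It ranged from 4.93 in MYCi975 replicate 2 to 6.26 in Combo replicate 4, and group means ran from 5.46 in MYCi975 to 5.72 in TMP195. Plagl1 (ENSMUSG00000019817.19), a zinc finger factor known to regulate other imprinted genes, was listed at the lowest value in 4 libraries (Vehicle replicates 2 and 4, TMP195 replicates 1 and 4) and reached at most 5.55, in TMP195 replicate 2. All 8 libraries given MYCi975 were between 5.03 and 5.43. These values stand so near the lowest that no difference was read from them.

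The spread within groups set most of these genes apart from the bulk of the table. The pooled SD within groups was 0.88 for H19, 0.79 for Igf2, 0.73 for Peg3, 0.49 for Grb10 and 0.43 for Mest, against a median of 0.22 over all genes tested. Of the 15715 genes, 116 had an SD at least as large as that of H19, which was chosen in part for it, 160 as that of Igf2 and 218 as that of Peg3. Igf2r, with 0.18, had an SD below the median.

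**Figure D3:**
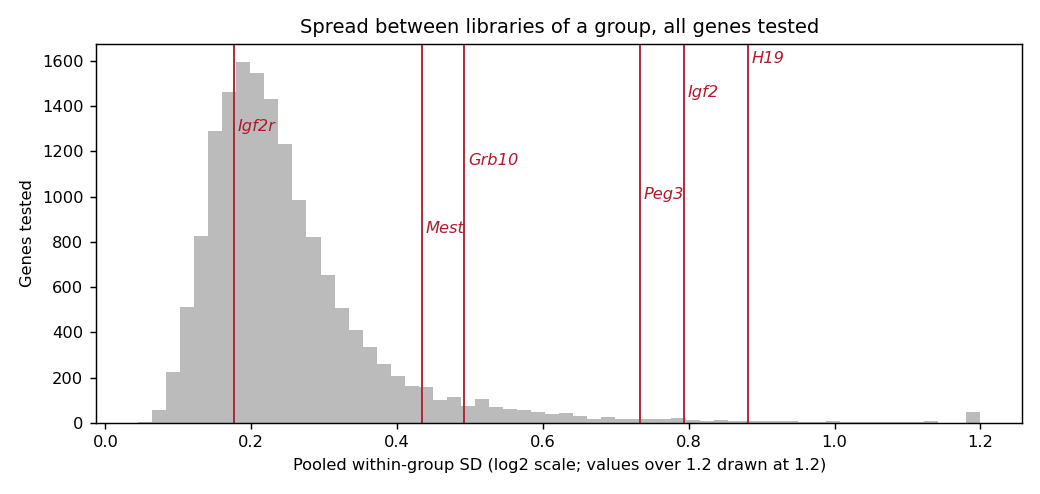
Number of genes tested (y axis) by pooled SD within the 4 treatment groups (x axis, log2 scale); red lines mark the 6 imprinted genes past the filter. H19 (0.88), Igf2 (0.79) and Peg3 (0.73) lie far to the right of the median of 0.22, and Igf2r (0.18) lies in the main peak.

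Igf2 was the member that varied most like H19. Over the 16 libraries Pearson's r was 0.78 and Spearman's rho 0.84, and r was 0.74 without the 2 libraries farthest from the median of H19 (Vehicle replicates 2 and 4). Since H19 differs between treatments by choice, r was also taken within them. It was 0.69 after subtracting group means, 0.92 over the 8 libraries without MYCi975 and 0.58 over the 8 given it. The 0.92 rested on replicate 1 of Vehicle and of TMP195, since r was 0.31 over the other 6 libraries without MYCi975. By r with H19 Igf2 ranked 12 of 12358 named genes with the group means kept and 79 after subtracting them. Combo replicate 4 departed most, with the highest Igf2 (8.96) at an H19 of 11.99.

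The other members followed H19 less closely or ran against it. For Grb10 r was 0.53 (0.58 after subtracting group means), for Igf2r 0.45 (0.61) and for Mest -0.42 (-0.38). For Peg3 r was -0.19 (-0.58). Over the 8 libraries without MYCi975 it was -0.73 for Peg3, and over the 8 given it 0.14. Without replicate 1 of Vehicle and of TMP195, the direction turned for some members over the remaining 6 libraries without MYCi975. There r was 0.11 for Peg3, -0.12 for Grb10 and 0.54 for Mest, against -0.73, 0.64 and -0.48 over all 8, whereas for Igf2r it was 0.62 against 0.67. These correlations are descriptions of 16 libraries that share a tumour line and a normalisation, and no p is given.

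**Figure D4:**
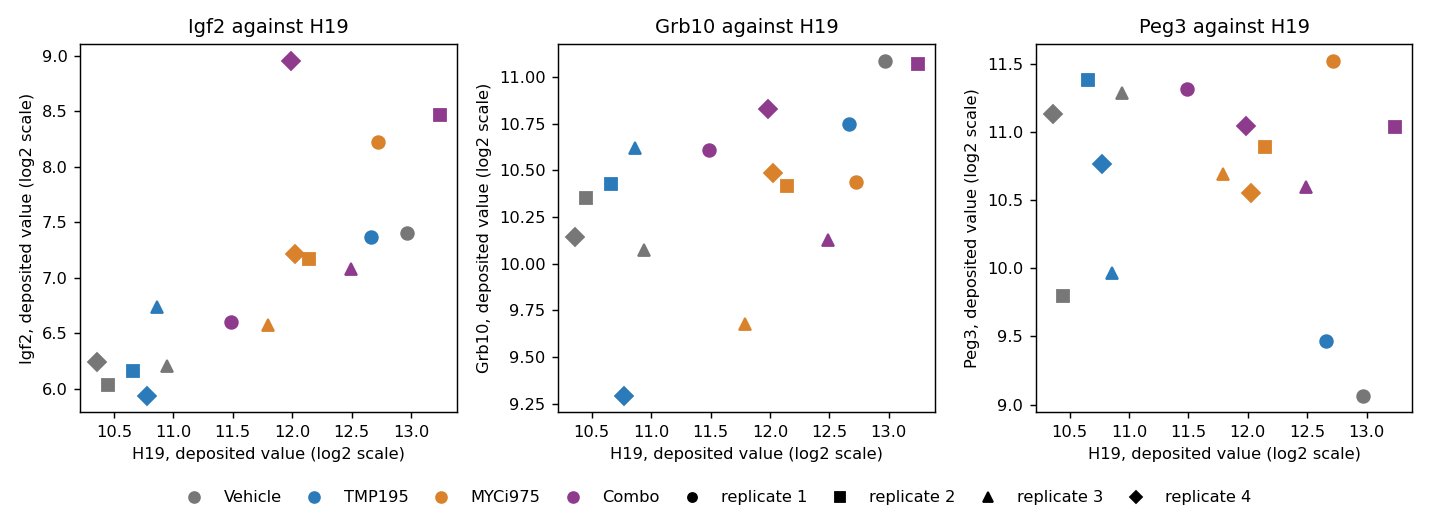
Values of Igf2, Grb10 and Peg3 (y axes) against H19 (x axes), all deposited values on a log2 scale; each point is 1 of 16 libraries, its colour the group and its shape the replicate number. Igf2 and H19 have an r of 0.78, and the 2 lowest Peg3 values belong to replicate 1 of Vehicle and TMP195, whose H19 is 12.97 and 12.66.

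Among 12358 named genes tested, those with the highest r with H19 over the 16 libraries were Kbtbd7 (0.88), Dcn (0.86), Spry2 (0.85), Onecut2 (0.84), Kctd1 (0.84) and Zmiz1os1 (0.83). Kbtbd7 moved over a narrow range of 7.86 to 8.17. Dcn, which encodes the matrix proteoglycan decorin and is itself imprinted in mouse placenta, ranged from 13.52 in Vehicle replicate 2 to 14.88 in Combo replicate 2. Spry2, an inhibitor of receptor tyrosine kinase signalling to ERK, had means of 11.21 in Vehicle, 11.38 in TMP195, 11.54 in MYCi975 and 11.75 in Combo. After subtracting group means, the highest r belonged to Kbtbd8 (0.94), Kbtbd7 (0.89), Vmn2r29 (0.87), Acvrl1 (0.86), Fam13c (0.85) and Ccpg1os (0.84).

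**Figure D5:**
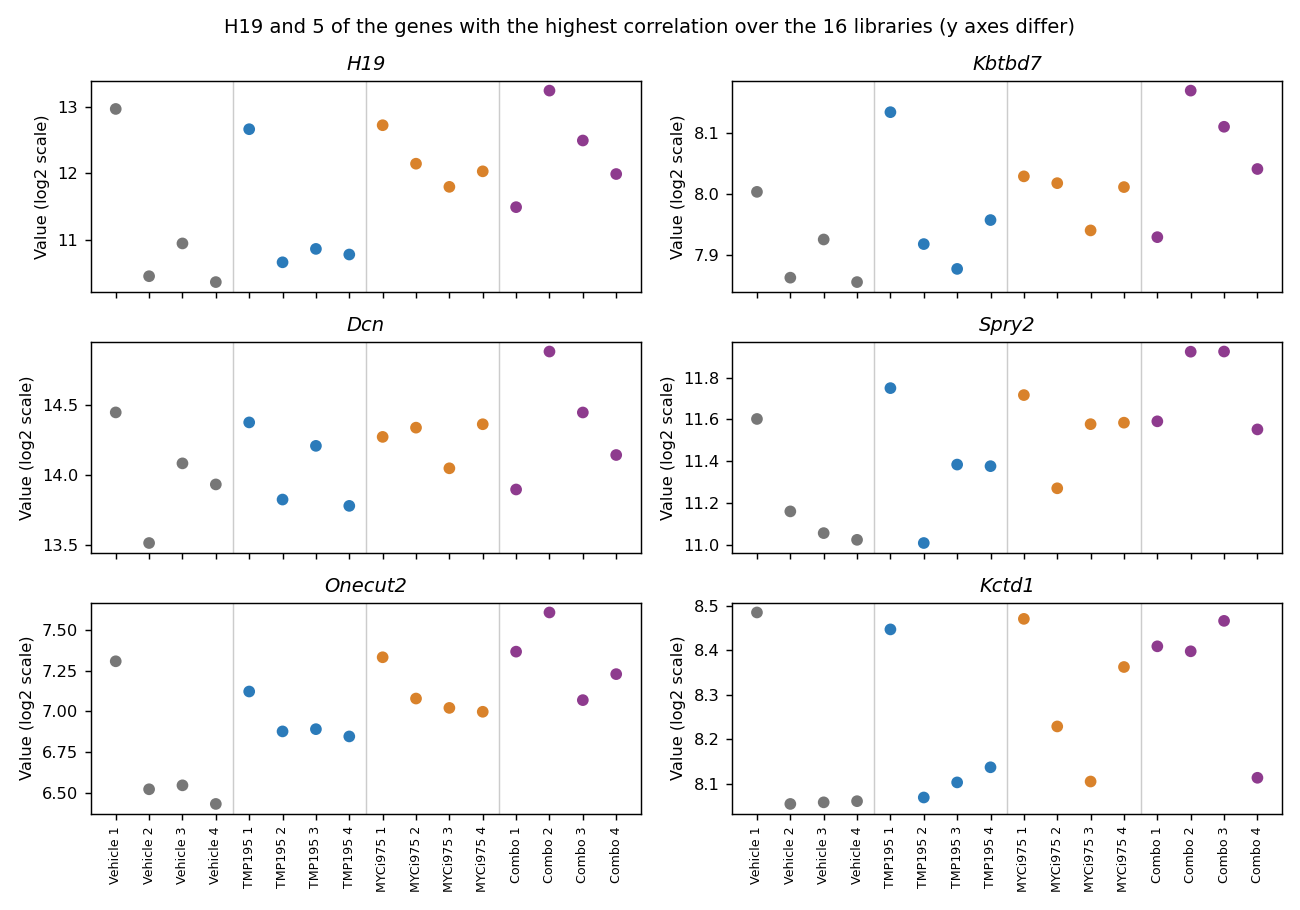
Deposited values (log2 scale, y axes differ) of H19 and 5 of the 6 genes with the highest r with it, for the 16 libraries in order of group and replicate (x axis). In each panel replicate 1 of Vehicle and of TMP195 is the highest of its group, as for H19, which partly follows from choosing the genes by r over these same libraries.

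Other imprinted genes differed little between libraries given MYCi975 and those without it. Of 55 listed, 45 had a row and 36 were tested. Given against not given MYCi975, 22 were higher and 14 lower, with a median difference of 0.04 against -0.0013 over all genes, and none had an unadjusted p under 0.05 (background 5.32%). Over the 16 libraries the mean of the 45 with a row nevertheless had an r of 0.62 with H19, the highest of the 17 lists examined. It was highest in replicate 1 in Vehicle (8.11), TMP195 (8.22) and MYCi975 (8.15), within a range over all libraries of only 8.03 to 8.22. Those with the smallest p were Airn (0.34, SE 0.17), Sgce (0.20, SE 0.10), Begain (-0.24, SE 0.12) and Dcn (0.28, SE 0.15). Against Vehicle, 3 of the 36 had an unadjusted p under 0.05 in TMP195 (background 4.88%), 1 in MYCi975 (background 3.03%) and 1 in Combo (background 4.09%). In TMP195 these were Ampd3, an AMP deaminase (1.02, SE 0.24, limma adjusted p = 0.904), the serotonin receptor gene Htr2a (0.67, SE 0.26, adjusted p = 0.945) and H13, a signal peptide peptidase (-0.20, SE 0.09, adjusted p = 0.945). In Combo it was H13 (-0.23, SE 0.09, limma adjusted p = 0.987), and in MYCi975 it was Airn.

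In the IGF pathway around Igf2, 22 genes for IGF ligands, receptors, binding proteins and substrates were listed. The mean of the 19 with a row had an r of 0.50 with H19, and 16 were tested. Given against not given MYCi975, 10 were higher and 6 lower (median 0.04), and 2 had an unadjusted p under 0.05, both higher, against 2.46% of all genes. These were Igf1 (0.34, SE 0.15, limma adjusted p = 0.932), the other IGF ligand, whose values of 5.18 to 6.42 were near the lowest, and Stc1, a stanniocalcin, of a family that inhibits IGFBP-cleaving PAPP-A proteases (0.53, SE 0.25, adjusted p = 0.937). The RNA-binding protein genes Igf2bp2 and Igf2bp3, whose products bind Igf2 RNA, stood at -0.15 (SE 0.07) and -0.15 (SE 0.08), and the receptor substrate genes Irs1 and Irs2 at 0.19 (SE 0.12) and 0.18 (SE 0.10), none of them called.

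Among genes that maintain imprints, none was called in the same comparison. Of 21 tested, 8 were higher and 13 lower (median -0.01), and none had an unadjusted p under 0.05. Zfp57, the zinc finger protein that guards methylated imprinting control regions, differed by 0.26 (SE 0.14, limma adjusted p = 0.975), and its r with H19 was 0.71. In TMP195 against Vehicle the DNA demethylase gene Tet2 differed by 0.44 (SE 0.13) and Uhrf1, a cofactor of maintenance methylation, by -0.35 (SE 0.16), each with a limma adjusted p of 0.945.

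CDK inhibitors and D cyclins, listed beside Cdkn1c, held 10 tested genes, of which 7 were higher and 3 lower with MYCi975 (median 0.05). Ccnd3 was higher at an unadjusted p under 0.05 (0.19, SE 0.09, limma adjusted p = 0.932), against 2.46% of all genes. Of 7 tested Notch ligands, receptors and targets, listed beside the Notch-related Dlk1, 4 were higher and 3 lower (median 0.01). The receptor Notch1 (-0.57, SE 0.18, limma adjusted p = 0.809) and the ligand Dll1 (-0.55, SE 0.22, adjusted p = 0.890) had an unadjusted p under 0.05, both lower, against 2.86% of all genes.

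Markers of the tumour cells and of other cell types were set beside H19. List means were taken over every listed gene with a row, including genes under the filter. Over the 12 marker lists, r of this mean with H19 ran from -0.50 for the erythroid list (6 rows, 3 tested) to 0.57 for the list of epithelial keratins and adhesion genes (8 rows, 4 tested). The keratins, the 4 genes tested, were higher in 4 of 4 with MYCi975 (median 0.12), none at an unadjusted p under 0.05. The mean of all 8 rows, adhesion genes under the filter included, ranged from 6.52 to 6.81 in Vehicle and 6.64 to 7.33 in TMP195. It ranged from 6.68 to 7.34 in MYCi975 and 6.77 to 6.99 in Combo. Single keratins had an r with H19 from 0.24 (Krt8) to 0.46 (Krt19). The genes under the filter had an r from -0.02 (Cldn4) to 0.57 (Epcam). The 3 erythroid markers tested were lower in 3 of 3 (median -0.17). The mean of the 6 with a row was lowest in Vehicle replicate 1 (5.30) and highest in TMP195 replicate 2 (6.62). The part of either in the H19 values was not tested. Of 10 fibroblast markers 9 were tested, and their mean ranged from 10.40 to 10.72 in Vehicle, 10.35 to 10.90 in TMP195, 9.97 to 11.04 in MYCi975 and 10.67 to 11.14 in Combo, with none at the lowest value throughout. Given against not given MYCi975, 7 of the 9 tested were higher (median 0.22) and Col3a1 was higher at an unadjusted p under 0.05, against 2.46% of all genes. The fibroblast mean had an r of 0.26 with H19, and the 9 tested genes spread widely. Dcn, Col3a1 and Pdgfra had 0.86, 0.71 and 0.66, the collagen genes Col1a1 and Col1a2 0.16 and 0.11, Lum 0.26, Dpt 0.13, Fap 0.10 and Pdgfrb -0.47. In replicate 1 of Vehicle and of TMP195 the fibroblast mean was 10.72 and 10.35, the highest and the lowest of their groups. The part of fibroblasts in the H19 values was not tested.

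Leukocyte markers (7 of 9 tested) had means of 6.40 to 6.96 in Vehicle, 6.63 to 7.78 in TMP195, 6.29 to 7.45 in MYCi975 and 6.45 to 6.66 in Combo, and an r of -0.07 with H19. Their mean was the lowest of Vehicle in replicate 1 (6.40) and the highest of TMP195 in replicate 1 (7.78), where H19 was 12.97 and 12.66. Of 7 macrophage and monocyte markers tested, none was higher and 7 were lower with MYCi975 (median -0.44). Of these, 5 had an unadjusted p under 0.05, against 2.86% of all genes, and none was called. This difference came with high values in TMP195, where against Vehicle all 7 were higher (median 1.17). There 6 had an unadjusted p under 0.05, against 383 of 15715 genes. In MYCi975 against Vehicle 3 were higher and 4 lower (median -0.06, none under 0.05). The mean of the 12 macrophage and monocyte markers with a row had an r of -0.13 with H19. The part of leukocytes in the H19 values was not tested. Of 12 skeletal muscle fibre markers, 10 had a row and 4 passed the filter, and the mean of the 10 was between 5.31 and 6.01 in every library. Of 10 myogenic progenitor markers, 5 had a row and 3 were tested. These were Pax3 (8.68 to 9.29), Chrna1 (6.20 to 7.04) and Megf10 (5.23 to 7.54), whose r with H19 was 0.08, -0.53 and 0.03. The myogenic factors Pax7, Myf5, Myod1 and Myog are not analysed here.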

How the data were processed

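RNA was sequenced from LLC1 tumour cells enriched from treated mice, 4 libraries in each of 4 groups. The labels' protocols name a spin-column RNA kit and a stranded total RNA library kit. The authors deposited variance-stabilised expression values on a log2-like scale, per the file's name. The submitters' processing notes list Salmon without a version and the build hg38, although samples and identifiers are mouse. The sources used here do not give the stabilisation tool, its settings or the annotation, so no coordinates are given for rows of the table. Symbols matched 23150 of 24334 identifiers (95.13%).

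Genes at least 1 above the lowest value in at least 4 libraries were tested (15715). Group means were estimated from the 16 libraries together in limma 3.58.1 (R 4.3.3) with an intensity trend. Two-sided p-values were adjusted after Benjamini and Hochberg over all genes within each of 7 comparisons and called under 0.05. On simulated data for the comparison of 8 with 8 libraries, 96% of 50 genes changed by 1 and 66% of 50 changed by 0.5 were recovered among 15715. The changed genes were drawn at random, each with its own SD (median of all genes 0.22) and independent noise. The shares therefore do not hold for genes as variable as H19, Igf2 and Peg3 (SD 0.88, 0.79 and 0.73). Members and lists were chosen with earlier results of these data known. Named list genes are those with the smallest p (4 for MYCi975 given against not given, 2 for each comparison with Vehicle), and genes like H19 are the 6 with the highest r, raw and with group means removed, without predicted genes. Sequences are from RefSeq tables on GRCm38.p6.

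Alternatives were no filter, a stricter filter (2 above the lowest value in 8 libraries, 11597 genes), no trend, quantile normalisation, median centring, a replicate block and a fit of the compared groups only. Libraries were also left out one at a time, as were all those numbered 4 and the 2 highest in leukocyte markers. After the H19 values had been seen, fits without every library numbered 1, or without replicate 1 of Vehicle and of TMP195, were added.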

Additional observations from a re-analysis of the deposited data

Results flagged for a closer look

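In groups of 4 libraries, 3 values of the 7 genes with a row other than H19 stood far from the other 3 libraries of their group, relative to the group's range (Dixon's test at the 95% level, 28 groups examined on both sides; chance flags about 1 group in 20). H19 was not examined in this way, since it was chosen for its spread. Igf2 in Vehicle replicate 1 was 7.41, against 6.03 to 6.24. Grb10 in MYCi975 replicate 3 was 9.68, against 10.42 to 10.49. Meg3 in Combo replicate 4 was 6.26, against 5.38 to 5.51, both near the lowest value.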

How the results depend on the processing

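None of the 5 tested members was called under any alternative (smallest adjusted p 0.328 by limma). Of 718 recomputed values of 27 member differences, 663 kept their direction and 55 changed sign, in 13 of the differences. Of the sign changes, 6 concerned H19 in TMP195 against Vehicle (0.06), which ran from -0.42 without TMP195 replicate 1 to 0.66 without Vehicle replicate 1. Leaving out each library in turn, the difference for MYCi975 given against not given stayed between 0.83 and 1.22 for Igf2 and between 0.87 and 1.33 for H19.

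For MYCi975 given, Igf2r was 0.049 with quantile normalisation and 0.092 without the 2 libraries highest in leukocyte markers (-0.049 to 0.055 leaving out 1 library), and Grb10 was -0.16 without libraries numbered 4 (-0.048 to 0.23). Against Vehicle in MYCi975, Igf2r was 0.045 with quantile normalisation and 0.061 without the 2 leukocyte-rich libraries (-0.070 to 0.061), Grb10 was 0.035 without those 2 (-0.27 to 0.067), and Mest ran from -0.35 to 0.064. In TMP195, Igf2 was -0.19 without those 2 (-0.19 to 0.39). Grb10 was 0.094 and Mest -0.19 without libraries numbered 4 (-0.30 to 0.19 and -0.063 to 0.35), and Peg3 ran from -0.35 to 0.40. Mest in Combo ran from -0.28 to 0.14. The Igf2 interaction was -0.15 without libraries numbered 4. The cause of these changes was not tested.

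Counts of called genes were 0 in all 7 comparisons. They became 1 for Combo against Vehicle with the compared groups alone, 1 for Combo against TMP195 without a trend, and 1 for Combo against TMP195 and for MYCi975 given without the 2 leukocyte-rich libraries, none of them a member. Leaving out 1 library gave 0 to 2 for TMP195 against Vehicle and for Combo against TMP195, and 0 to 1 for MYCi975 against Vehicle and for Combo against MYCi975, again no member.

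Both of the following alternatives were chosen after the H19 values had been seen, because replicate 1 of Vehicle and of TMP195 stood high in H19. Without all libraries numbered 1, H19 was the 1 gene called for MYCi975 given and the 1 gene called for Combo against Vehicle. Without replicate 1 of Vehicle and of TMP195, 2 genes were called for MYCi975 given, H19 and Pdk1. H19 was chosen for its higher mean in the groups given MYCi975, and the libraries were left out for the value that is then compared. These calls are therefore not evidence that H19 differs. The H19 differences for MYCi975 given were 1.61 and 1.56. Under these alternatives Igf2r for MYCi975 given was 0.041 and 0.077, Peg3 in TMP195 was -0.037 under both, Peg3 in MYCi975 was -0.027 without libraries numbered 1, Grb10 in MYCi975 was 0.0055 and 0.067, and Igf2r in MYCi975 was 0.031 without the pair.

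Deviations of same-numbered libraries correlated at -0.24 to 0.43 (15 of 24 pairs over 0.1), and 9 of 16 libraries were closest to their own number. All 6 pairs of replicate 1 (0.20 to 0.43) and all 6 of replicate 4 (0.17 to 0.39) were over 0.1, but not those of replicates 2 and 3. As no label ties the numbers to a batch and not every pair passed, the libraries were treated as unpaired, and the shared deviation of replicates 1 and 4 remains a hint from the data. With replicate number as a block, the counts stayed at 0 and Igf2 with MYCi975 given was 1.03 (adjusted p = 0.661). Depth is unknown, which limits what can be said of Meg3 and Plagl1.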
